A study of Mus musculus with 4 samples.

Results

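Rab proteins are small GTPases of the Ras superfamily that mark membrane compartments and direct vesicle budding, transport, tethering and fusion. A Rab cycles between a GTP-bound form, switched on by a guanine nucleotide exchange factor (GEF), and a GDP-bound form, switched off by a GTPase-activating protein (GAP), and a prenyl tail anchors it to the membrane. In neurons, Rab3 and Rab27 act on synaptic vesicles, Rab5 on early endosomes, Rab4 and Rab11 on recycling of receptors to the surface, and Rab7 on late endosomes. Rab genes were taken here as array features whose symbol is Rab followed by a number and its letter, which gave 58 of the 24185 gene symbols on the array, with 83 probes in 92 spots. The measured values of the arrays were not used in this rule, though earlier results of these data were known when the members were chosen.

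RNA immunoprecipitation (RIP) recovers RNA together with a protein that an antibody pulls down. The aim of the experiment was to find RNA bound by CPEB2, a protein that binds cytoplasmic polyadenylation elements (CPEs) in mRNA and controls translation. Corticohippocampal tissue came from 8-week-old male C57BL/6 mice with no genetic change given, and its lysate was divided between beads carrying CPEB2 IgG and beads carrying control IgG for 3 hours. Each of 2 experiments gave 1 array per antibody, 4 one-color arrays in all. The titles and protocol of the CPEB2 IgG samples name CPEB2, whereas a description field of theirs names CPEB3 IgG, and they were treated as CPEB2 IgG. Input RNA is not analysed here. Signals came from all cells of the tissue, so a level does not tell cell number from RNA per cell, while both antibodies of an experiment received parts of the same lysate.

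Between 68.4% and 74.1% of spots were well above background on an array, and no spot was saturated. All 8 neuron markers and all 7 astrocyte markers were well above background on every array, and none of the 5 liver and muscle markers was. Each antibody held its own positions on the single slide, so position and antibody cannot be told apart. The raw signal below is the scanner software's background-corrected spot intensity. Log2 fold changes compare CPEB2 IgG with control IgG within each experiment, after each array was scaled to its 75th percentile, and are given as the mean ± SD of 2 experiments. The p-values are from limma with the experiment as a block, adjusted over all 19698 genes tested, and a gene was called at an adjusted p-value under 0.05. For a single gene, the smallest two-sided p of an exact permutation test of 2 against 2 arrays that ignores the experiments was 0.333. Permuting within experiments leaves fewer arrangements.

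Because CPEB2 binds CPEs, the Rab probes that hold CPE letters are shown first. The letters searched were TTTTAT and TTTTAAT, neither of which contains the other, on the transcript strand of the 60-base probes, and they are in capitals in the stretches of 30 bases below (5′ to 3′). They occurred in 4 of the 83 Rab probes, a share of 4.82%, beside 5.20% of the 33215 probes of all genes. Their reverse complement occurred in 9.64% of Rab probes and 7.77% of all gene probes. A match in a probe is a description and not a binding site, and the full 3′ UTRs were not searched.
Rab2a: tgtgttaacctgTTTTAATgccaaaagcta
Rab36: gtcTTTTATtctaaaaagtatataaaacat
Rab5b: atccttcaaccgTTTTAATtaaatggaatc
Rab6a: atggagttgtaaagtgcTTTTATaatacac
The probe of Rab2a had a log2 fold change of -0.47 and that of Rab36 1.21. The values were 0.55 for this probe of Rab5b and 0.41 for that of Rab6a. None of the 4 genes was called in either direction.

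Of the 58 Rab genes, 57 were tested and 1, Rab25, was not detected on enough arrays. All but 1 of the tested genes were well above background on all 4 arrays. With CPEB2 IgG, 16 of the 57 were higher (28.1%), beside 21.2% of all genes tested, and 12 were lower (21.1%), beside 20.4% of all genes. The remaining 29 were not called. The median log2 fold change over the Rab genes was 0.26 and the range -1.99 to 2.65, beside a median of -0.11 over all genes. Both CPEB2 IgG arrays lay above both control IgG arrays in 31 Rab genes and below them in 21, and over all genes these patterns held for 33.7% and 38.2%. Without 1 array, control IgG replicate 1, the 16 higher calls became 9 and the 12 lower calls also 9. With all 4 arrays and the block but no filter on dim probes, 8 were higher and 8 lower, beside 9.37% and 7.6% of all genes in that setting. Fits without 1 array also dropped the block, so both changed at once. Without control IgG replicate 1, the higher and lower shares over all genes tested were smaller as well. Calls of 16 Rab genes remained when any single array was left out, and 12 were lost without at least 1 array. Those were Rab5c, Rab12, Rab14, Rab21, Rab23, Rab33b, Rab35 and Rab39 among the higher, and Rab1b, Rab7l1, Rab19 and Rab42 among the lower.

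**Figure D1:**
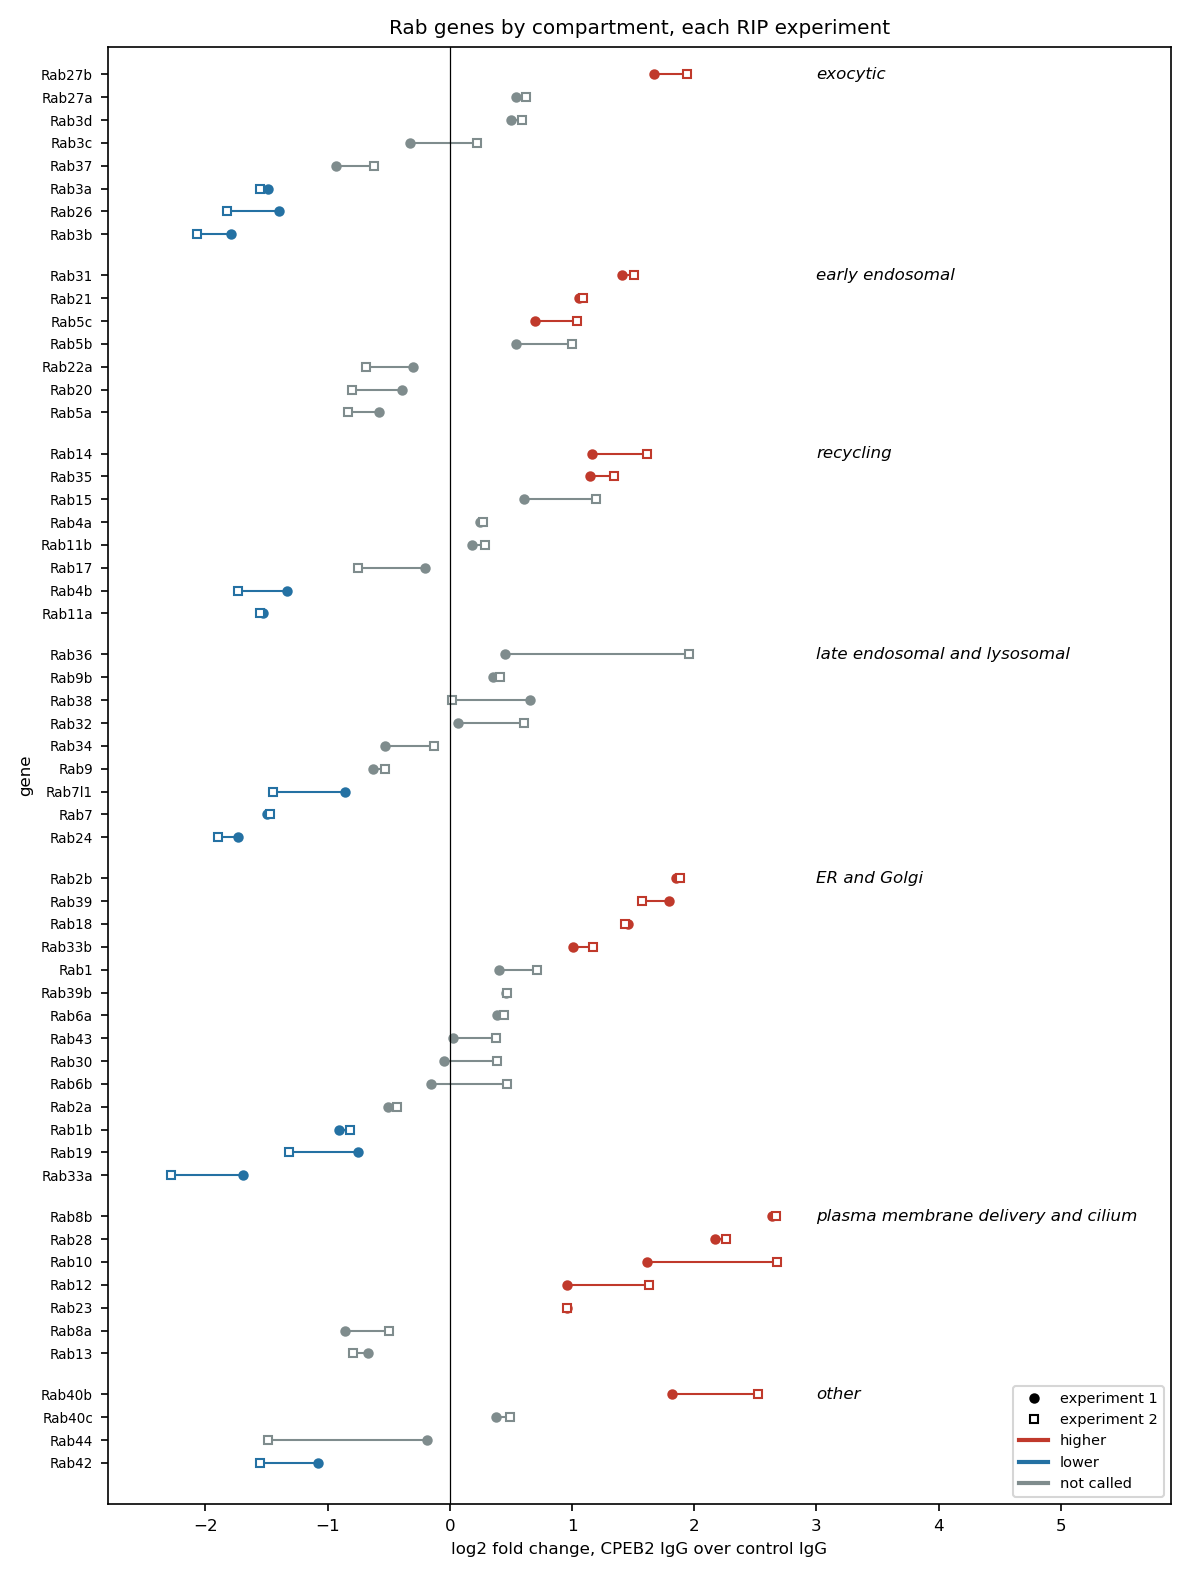
The horizontal axis gives the log2 fold change of CPEB2 IgG over control IgG for each of the 57 tested Rab genes, listed by compartment, with a filled circle for experiment 1, an open square for experiment 2 and color for the limma call. Calls in both directions stand among the exocytic, recycling, ER and Golgi, and other genes, the early endosomal group holds 3 higher and 0 lower calls, the plasma membrane delivery group holds 5 higher and 0 lower calls and the late endosomal group 0 higher and 3 lower. Over all genes tested, 21.2% were higher and 20.4% lower.

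The exocytic group includes the Rab3 genes, which act in docking and priming of synaptic vesicles, and Rab26, Rab27a, Rab27b and Rab37 of secretory vesicles. Of its 8 genes, 3 were lower with CPEB2 IgG (Rab3a, Rab3b and Rab26) and 1 was higher (Rab27b). These are shares of 37.5% and 12.5%, beside 20.4% lower and 21.2% higher over all genes tested. Rab3a, the main Rab of synaptic vesicles (probe at chr8:73282447-73282506, + strand, mm9), had raw signals of 28199 and 27813 on the CPEB2 IgG arrays, against 84009 and 82618 on the control IgG arrays. Both control arrays were far above both CPEB2 IgG arrays, and the log2 fold change was -1.52 ± 0.04 (adjusted p = 0.00931), a 2.87-fold excess with control IgG. Rab3b (chr4:108613734-108613793, + strand) had raw signals of 2193 and 1597 after CPEB2 IgG pulldown and of 8054 and 6819 after control pulldown. It was also lower on both CPEB2 IgG arrays, with a log2 fold change of -1.93 ± 0.20 (adjusted p = 0.00655).

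Rab3c (chr13:110850524-110850583, - strand) had CPEB2 IgG signals of 31651 and 31262 beside control IgG signals of 42103 and 27255. The control arrays enclosed the CPEB2 IgG arrays, and the log2 fold change of -0.05 ± 0.39 was not called (adjusted p = 0.886). Its sign turned to 0.29 after quantile normalization, to 0.17 after median centring and to 0.23 without control IgG replicate 1. Rab3d (chr9:21713734-21713793, - strand) was dimmer, with raw signals of 209 and 259 against 156 and 174 with control IgG. Both CPEB2 IgG arrays were above the controls, but the log2 fold change of 0.55 ± 0.06 was not called (adjusted p = 0.121), and the other probe of Rab3d gave -1.10.

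Rab27b, which acts in docking of secretory granules, had raw signals of 2251 and 2701 on the CPEB2 IgG arrays, against 748 and 714 on the control IgG arrays. The groups did not overlap and the log2 fold change was 1.81 ± 0.19 (adjusted p = 0.00719), whereas a second probe of the gene gave 0.03. Rab26 had -1.61 ± 0.30 (adjusted p = 0.00978). Rab27a (0.58) and Rab37 (-0.78) were not called. The median over the exocytic genes was -0.41, and it was 0.06 without control IgG replicate 1 and -0.87 without control IgG replicate 2. Of 8 neuron markers, 4 were lower and 1, Map2, was higher (2.43), with a median log2 fold change of -0.74, beside 20.4% lower and 21.2% higher over all genes. Neuron marker raw signals summed to 107645 and 111292 on the CPEB2 IgG arrays, against 168714 and 173804 on the control IgG arrays, and their part in the exocytic result was not tested. Of 7 markers each, 3 were lower and 0 higher for oligodendrocytes, 3 lower and 1 higher for microglia, and 2 lower and 4 higher for astrocytes.

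Early endosomal Rabs govern homotypic fusion and the sorting of endocytosed receptors. Of the 7 genes, 3 were higher (Rab5c, Rab21 and Rab31) and 0 were lower, and the median log2 fold change was 0.77. The higher share was 42.9%, beside 21.2% of all genes tested, of which 20.4% were lower. Rab31, an early endosomal and trans-Golgi Rab (chr17:66001515-66001574, - strand), had raw signals of 2543 and 2557 after CPEB2 IgG pulldown and of 1012 and 915 after control pulldown. The groups were well apart, with a log2 fold change of 1.46 ± 0.07 (adjusted p = 0.0103). Rab5a (chr17:53646662-53646721, + strand) had CPEB2 IgG signals of 2791 and 2722 beside control IgG signals of 4422 and 4932. Both control arrays were higher, and the log2 fold change of -0.71 ± 0.18 missed the threshold (adjusted p = 0.0707) but passed it without the block for the experiment (adjusted p = 0.0456). Its second probe gave -0.83. The other Rab5 genes had positive values, 0.87 ± 0.24 for Rab5c (adjusted p = 0.0442) and 0.77 ± 0.33 for Rab5b (adjusted p = 0.0679). Leaving out any of the 4 arrays ended the call of Rab5c, with adjusted p-values from 0.0526 to 0.179, as did scaling to the percentile of probes well above background on all arrays. Rab21 had 1.07 ± 0.02 (adjusted p = 0.022), and without either control IgG array its adjusted p-values were 0.0722 and 0.0721. Rab20 (-0.60) and Rab22a (-0.49) were not called.

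Recycling Rabs return receptors, AMPA receptors among them, from endosomes to the surface. Among the 8 tested genes, 2 were higher (Rab14 and Rab35) and 2 lower (Rab4b and Rab11a), with a median of 0.25. Each share was 25.0%, beside 21.2% higher and 20.4% lower over all genes tested. Rab11a, the Rab of the recycling endosome (chr9:64574530-64574589, - strand), had raw signals of 240 and 270 on the CPEB2 IgG arrays, against 737 and 803 on the control IgG arrays. The CPEB2 IgG arrays were the lower ones in both experiments, and the log2 fold change was -1.54 ± 0.01 (adjusted p = 0.00901). Rab4b, of fast recycling, was lower to a like extent (-1.53 ± 0.29, adjusted p = 0.0109). Rab4a (chr8:126359128-126359187, + strand) had raw signals of 7005 and 7469 after CPEB2 IgG pulldown and of 6232 and 6274 after control pulldown. The groups did not overlap but lay close, and the log2 fold change was 0.26 ± 0.02 (adjusted p = 0.406), with -0.96 at its second probe.

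Rab14, which links endosomes and the Golgi (chr2:35035785-35035844, - strand), had CPEB2 IgG signals of 29461 and 43613 beside control IgG signals of 13980 and 14570. Both CPEB2 IgG arrays were higher, the second more so, and the log2 fold change was 1.38 ± 0.32 (adjusted p = 0.0145, and 0.0536 without control IgG replicate 1). Rab35, which acts in endosomal recycling and neurite outgrowth, had 1.24 ± 0.14 (adjusted p = 0.0158, and 0.0648 without control IgG replicate 1). Rab15 had 0.90 ± 0.41 and just missed the threshold (adjusted p = 0.0514), so it was not called. Rab11b (0.23) and Rab17 (-0.48) were not called.

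Late endosomal and lysosomal Rabs carry cargo to degradation and to lysosome-related organelles. Of the 9 genes, 3 were lower (Rab7, Rab7l1 and Rab24) and 0 higher, with a median of -0.33. The lower share was 33.3%, beside 20.4% of all genes tested, of which 21.2% were higher. Rab7, which controls maturation of late endosomes and their fusion with lysosomes (chr6:87950462-87950521, - strand), had raw signals of 1462 and 1391 on the CPEB2 IgG arrays, against 4380 and 3910 on the control IgG arrays. It was lower on both CPEB2 IgG arrays, with a log2 fold change of -1.48 ± 0.02 (adjusted p = 0.00975). Rab24, an atypical Rab linked to autophagy (chr13:55421675-55421734, - strand), had raw signals of 1095 and 1121 after CPEB2 IgG pulldown and of 3848 and 4251 after control pulldown. Again the groups were far apart, with a log2 fold change of -1.82 ± 0.12 (adjusted p = 0.00692). Rab7l1, now named Rab29, had -1.15 ± 0.42 (adjusted p = 0.0271). Its call was lost without CPEB2 IgG replicate 2 (adjusted p = 0.0534) and without either control IgG array (0.0894 and 0.0785).

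Rab36 (chr10:74516771-74516830, + strand) had CPEB2 IgG signals of 270 and 863 beside control IgG signals of 209 and 225. The excess stood mostly on 1 CPEB2 IgG array, that of experiment 2, and the log2 fold change of 1.21 ± 1.07 was not called (adjusted p = 0.0767). It was called without CPEB2 IgG replicate 1 (2.05, adjusted p = 0.0163). With all 4 arrays it was also called after quantile normalization (adjusted p = 0.0465), median centring (0.00823) or normexp background correction (0.029), with an intensity trend (0.00887) and with only genes well above background on all arrays (0.0307). The remaining genes Rab9, Rab9b, Rab32, Rab34 and Rab38 were not called, with log2 fold changes from -0.58 for Rab9 to 0.38 for Rab9b.

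Rabs of the endoplasmic reticulum and Golgi direct early secretory transport and traffic within the Golgi. Of the 14 genes, 4 were higher (Rab2b, Rab18, Rab33b and Rab39) and 3 lower (Rab1b, Rab19 and Rab33a), with a median of 0.31. These are shares of 28.6% and 21.4%, beside 21.2% higher and 20.4% lower over all genes tested. Rab2b (chr14:52881499-52881558, - strand) had raw signals of 8123 and 7880 on the CPEB2 IgG arrays, against 2385 and 2173 on the control IgG arrays. The groups were well separated, and the log2 fold change was 1.87 ± 0.02 (adjusted p = 0.00654). Rab33a (chrX:45883240-45883299, + strand) had raw signals of 836 and 648 after CPEB2 IgG pulldown and of 2863 and 3198 after control pulldown. It had the lowest log2 fold change among the tested Rab genes, -1.99 ± 0.41 (adjusted p = 0.00742), and was lower in both experiments. Rab33b, a medial Golgi Rab (chr3:51299763-51299822, + strand), had CPEB2 IgG signals of 3001 and 3152 beside control IgG signals of 1576 and 1422. It went the other way, with a log2 fold change of 1.09 ± 0.11 (adjusted p = 0.0218), and its call was lost without either control IgG array (0.0625 and 0.0763). Its second probe gave 0.39, and with the mean of its probes Rab33b had 0.74 and was not called (adjusted p = 0.0721).

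Rab18, linked to the endoplasmic reticulum and lipid droplets, had 1.44 ± 0.02 (adjusted p = 0.0104). Rab39 had 1.68 ± 0.16 (adjusted p = 0.00796, and 0.0846 without CPEB2 IgG replicate 2). Rab1b, of transport from the endoplasmic reticulum to the Golgi, had -0.86 ± 0.07 (adjusted p = 0.0397) and Rab19 had -1.04 ± 0.40 (adjusted p = 0.0351). Both were lost without CPEB2 IgG replicate 2 (0.0542 and 0.06) and without either control IgG array, with adjusted p-values from 0.0896 to 0.152. With all 4 arrays, both calls were also lost with GC-bin centring, with median centring and with no filter on dim probes, and that of Rab19 after normexp background correction.

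Rab1, of the same transport step as Rab1b (chr11:20125270-20125329, + strand), had raw signals of 9471 and 12504 on the CPEB2 IgG arrays, against 7598 and 7787 on the control IgG arrays. Both CPEB2 IgG arrays were above the controls, and the log2 fold change of 0.55 ± 0.22 was not called (adjusted p = 0.129). Rab6a, a Rab of retrograde Golgi transport (chr7:107789641-107789700, + strand), had raw signals of 22038 and 26722 after CPEB2 IgG pulldown and of 17853 and 20050 after control pulldown. Its groups did not overlap either, and the log2 fold change of 0.41 ± 0.04 was not called (adjusted p = 0.213). Centring within bins of probe GC content turned the sign of both, to -0.11 for Rab1 and -0.25 for Rab6a. The other 5 genes, Rab2a, Rab6b, Rab30, Rab39b and Rab43, lay between -0.47 and 0.47 and were not called.

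The group of plasma membrane delivery and the cilium had the highest median among the compartments, 1.30, with 5 of 7 genes higher (Rab8b, Rab10, Rab12, Rab23 and Rab28) and 0 lower. The higher share was 71.4%, beside 21.2% of all genes tested, of which 20.4% were lower. Rab8b, which carries Golgi-derived vesicles to the surface (chr9:66691564-66691623, - strand), had CPEB2 IgG signals of 8315 and 9371 beside control IgG signals of 1414 and 1498. This separation was the widest among the tested Rab genes, a log2 fold change of 2.65 ± 0.02 (adjusted p = 0.00543) or 6.29-fold, and the second probe gave 1.66. Rab10, of exocytosis and axonal membrane supply (chr12:3247758-3247817, - strand), had raw signals of 13827 and 26505 on the CPEB2 IgG arrays, against 4812 and 4198 on the control IgG arrays. Both CPEB2 IgG arrays were higher, that of experiment 2 most of all, and the log2 fold change was 2.14 ± 0.76 (adjusted p = 0.0103), but the second probe gave -0.40. Averaged over its 2 probes, Rab10 had 0.87 and was not called (adjusted p = 0.0765).

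Rab8a, the paralogue of Rab8b (chr8:74700227-74700286, + strand), had raw signals of 769 and 776 after CPEB2 IgG pulldown and of 1474 and 1115 after control pulldown. The controls were the higher arrays, and the log2 fold change of -0.68 ± 0.25 was not called (adjusted p = 0.0847), while the second probe gave 1.39. Rab13, of tight junction traffic (chr3:90024884-90024943, + strand), had CPEB2 IgG signals of 37.7 and 32.5 beside control IgG signals of 63.5 and 57.3. It was dim and lower on both CPEB2 IgG arrays, with a log2 fold change of -0.73 ± 0.09 that missed the threshold (adjusted p = 0.0615) and passed it without the block (adjusted p = 0.0422).

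Rab28, a ciliary Rab, had 2.21 ± 0.06 (adjusted p = 0.00558). Rab12 was put in this group, although the role named next could also place it with the late endosomal and lysosomal genes. That group, with 0 higher calls, would then hold a higher call. Rab12, of endosomal degradation of membrane proteins, had 1.30 ± 0.48 (adjusted p = 0.0221) and was lost without either control IgG array (0.0522 and 0.0624) and with GC-bin centring. Rab23, which acts on Hedgehog signalling at the cilium, had 0.96 in both experiments (adjusted p = 0.0296). Its call was lost without CPEB2 IgG replicate 2 (0.054) and without either control IgG array (0.125 and 0.0812).

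The last 4 genes belong to none of these compartments. Rab40b, of a subfamily that recruits ubiquitin ligases (chr11:121217492-121217551, - strand), had raw signals of 9868 and 16779 on the CPEB2 IgG arrays, against 2951 and 2978 on the control IgG arrays. Both CPEB2 IgG arrays were clearly higher, with a log2 fold change of 2.17 ± 0.49 (adjusted p = 0.00697). Rab42 (chr4:131858398-131858457, - strand) had raw signals of 87.3 and 72.9 after CPEB2 IgG pulldown and of 196 and 217 after control pulldown. It was lower on both CPEB2 IgG arrays, with a log2 fold change of -1.32 ± 0.33 (adjusted p = 0.0168, and 0.0532 without control IgG replicate 2). Rab40c (0.44) and Rab44 (-0.84) were not called. The median of the 4 genes was -0.20.

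**Figure D2:**
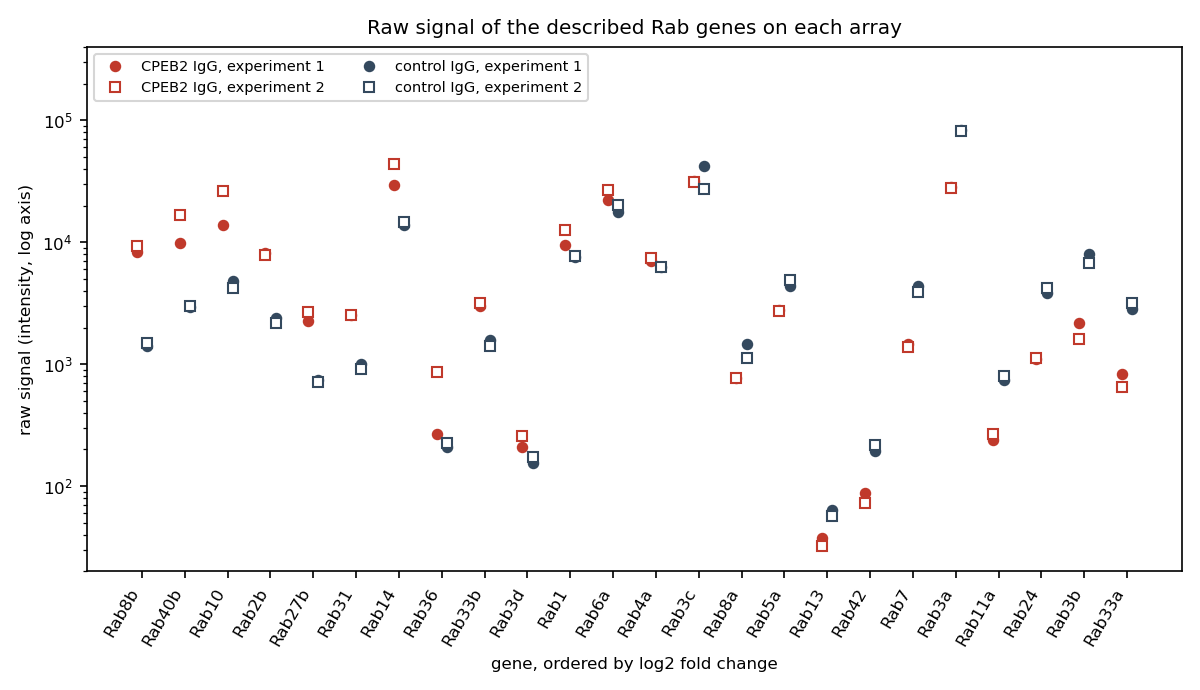
The vertical log axis gives the raw signal of 24 Rab genes, ordered by log2 fold change, with CPEB2 IgG in red and control IgG in dark blue, circles for experiment 1 and squares for experiment 2. Rab8b runs from 1414 and 1498 with control IgG to 8315 and 9371 with CPEB2 IgG, Rab3a shows the opposite order, and the arrays of Rab3c overlap. Signals of different genes come from different probes and are not to be compared.

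Rab paralogues encode closely related proteins, and 15 families had at least 2 tested members. The highest and lowest members of a family were farthest apart for Rab8, 3.33 on the log2 scale between Rab8b and Rab8a, and for Rab33, 3.08 between Rab33b and Rab33a. Rab33 was the only family of the 15 with 1 member called higher and 1 called lower, and the call of Rab33b was among those lost without 1 array and with the mean of its probes. The span was 2.48 in the Rab3 family, 2.34 between Rab2b and Rab2a, 1.95 between Rab31 and Rab22a, and 1.78 between Rab11b and Rab11a. At the other end, Rab6a and Rab6b differed by 0.25, and Rab32 and Rab38 had the same value to 2 decimals. These are differences between the brightest probes of different genes and were not tested. The Rab8 and Rab3 spans depend on the probe read. The second probe of Rab8a gave 1.39 and that of Rab3d -1.10. Probes of one family shared runs of at most 7 bases, and the longest run shared by any 2 Rab genes was 11 bases, between Rab17 and Rab4a.

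**Figure D3:**
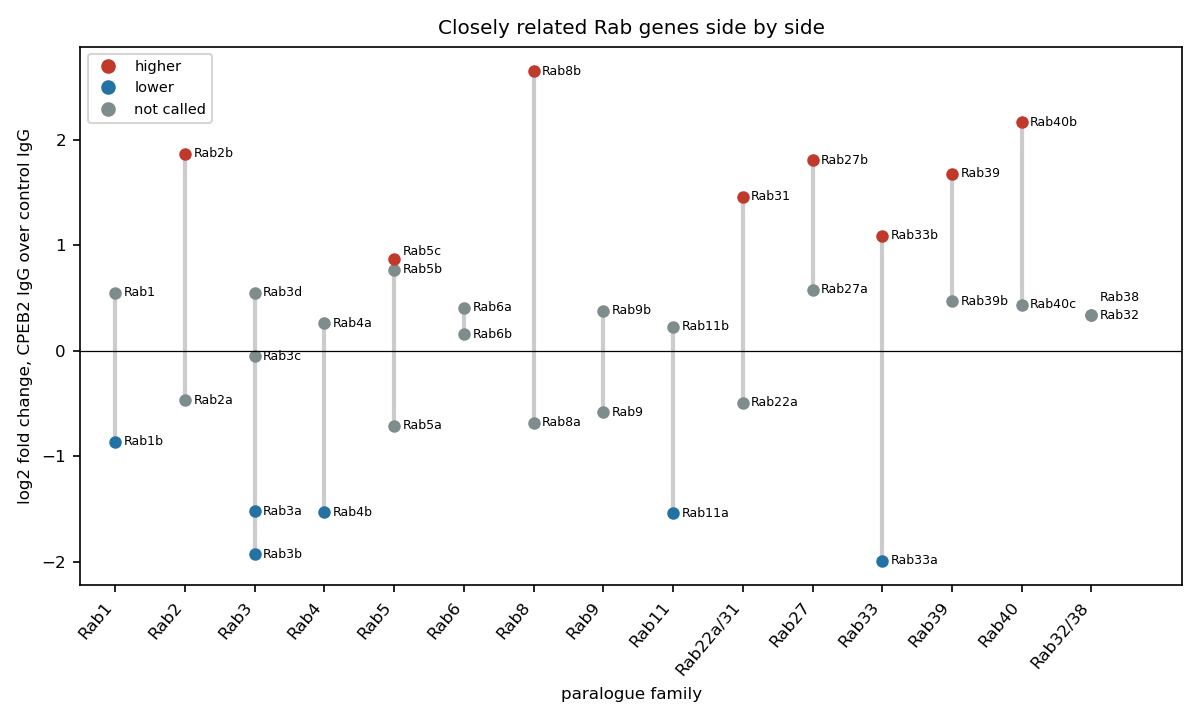
Each column is a paralogue family and each point a Rab gene, with the log2 fold change of CPEB2 IgG over control IgG on the vertical axis and color for the limma call. The Rab8 and Rab33 columns are the longest, at 3.33 and 3.08, and the Rab6 and Rab32/38 columns the shortest. Points are the brightest probes, and the second probe of Rab8a, not drawn, gave 1.39.

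Of the 58 Rab genes, 37 had 1 probe on the array and 21 had several. Among the lower calls only Rab7l1 had a second probe (-1.13). Among the higher calls only Rab8b, Rab10, Rab23, Rab27b and Rab33b had a second probe, and the other calls rest on 1 probe each. Several Rab genes gave different values at different probes of the same gene. In 5 genes the detected probes differed by more than 1 on the log2 scale, 2.55 in Rab10, 2.07 in Rab8a, 1.77 in Rab27b, 1.65 in Rab3d and 1.22 in Rab4a. The middle 30 bases of both probes of Rab10, Rab8a, Rab3d and Rab4a are shown because the sign of the gene turned on which probe was read. The probe nearer the 5′ end of the gene is called upstream and the other downstream, coordinates are mm9, and no letters are marked.
Rab10 upstream: aaaagcaaatataaacatcgaaaaggcgtt
Rab10 downstream: tgtttgcataattataatcgacattgtaca
Rab8a upstream: caagttcatggagaccagtgcaaaggccaa
Rab8a downstream: aaagctcacttagaggattttggaagaagt
Rab3d upstream: accacggcctactatcgcggagctatgggt
Rab3d downstream: actcccctaaacactatctgacatttcatg
Rab4a upstream: gctttcatgcagtgtgcaaggaaaatactt
Rab4a downstream: ggactcattaacacctggaaataaagtgga
The upstream and downstream stretches lay at chr12:3252643-3252672 and chr12:3247773-3247802 for Rab10 (- strand) and at chr8:74700242-74700271 and chr8:74704511-74704540 for Rab8a (+ strand). They lay at chr9:21719363-21719392 and chr9:21713749-21713778 for Rab3d (- strand) and at chr8:126356753-126356782 and chr8:126359143-126359172 for Rab4a (+ strand). Whether a probe lies in coding sequence or a UTR is not given by the array annotation used here.

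In all 4 genes the upstream probe was below 0 and the downstream probe above it, from -0.40 to 2.14 in Rab10, -0.68 to 1.39 in Rab8a, -1.10 to 0.55 in Rab3d and -0.96 to 0.26 in Rab4a. In 13 Rab genes, detected probes lay at least 500 bases apart in genome coordinates, and their distance along the transcript is not known. The downstream probe had the higher log2 fold change in 12 of these genes (92.3%), with a median difference of 0.92. Over all 4390 genes with such a pair, it was higher in 74.6%, with a median difference of 0.64. The exception was Rab13, whose 2 probes both gave -0.73. Rab8b had 1.66 at the upstream and 2.65 at the downstream probe, so both were on the higher side, and Rab5a had -0.83 and -0.71, both on the lower.

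**Figure D4:**
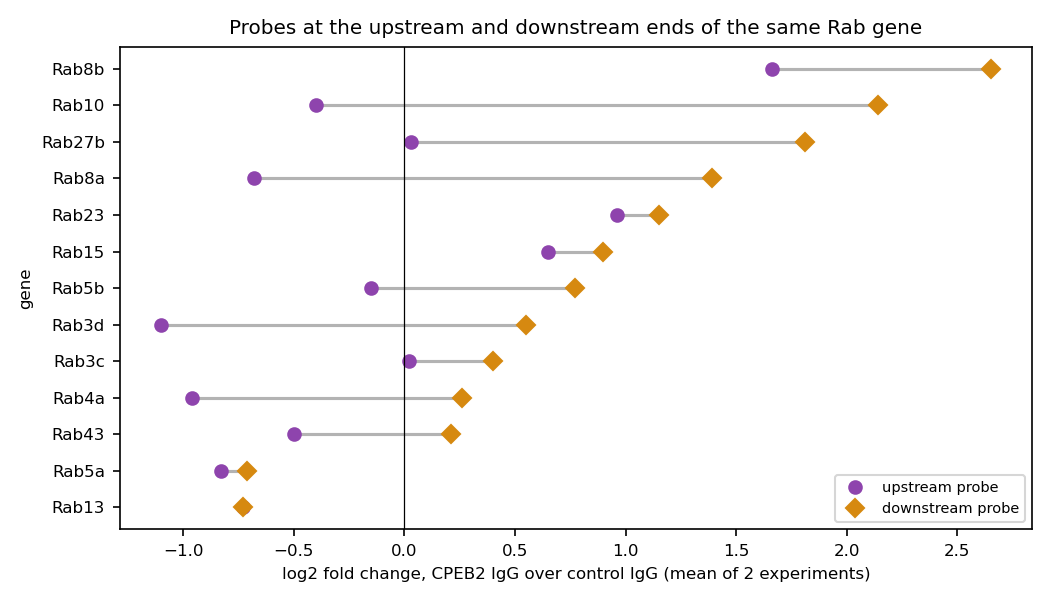
The horizontal axis gives the log2 fold change of CPEB2 IgG over control IgG, as the mean of 2 experiments, at the upstream probe (circle) and the downstream probe (diamond) of 13 Rab genes. The diamond lies to the right of the circle in 12 genes, and both points of Rab13 lie at -0.73.

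Probe base composition moved with the values. Across the 57 Rab genes, the log2 fold change and the GC content of the probe had r = -0.49 (Spearman correlation -0.48), beside r = -0.36 over all genes, and genes are not independent replicates. The median probe GC content was 38.3% for the higher Rab genes, 40.0% for those not called and 45.0% for the lower. After centring within 10 bins of GC content, 15 of the 16 higher and 10 of the 12 lower Rab genes remained called and the counts were 19 and 12, while the median over the Rab genes was 0.08.

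The study selected RNA by a raw signal and a fold threshold and a CPE. These were read here as a mean fold change over 1.5 and a raw signal over 1000 in 1 or both CPEB2 IgG arrays, a reading its methods do not spell out, and the CPE was not required. They were passed by 17 of the 58 Rab genes, beside 13.9% of the 24164 genes with a measured probe. Of the 17, 13 were also called higher by limma, and the other 4 were Rab5b, Rab6a, Rab8a and Rab15. Rab6a and Rab8a passed through a probe other than the brightest one. By compartment, 5 belonged to plasma membrane delivery and the cilium, 4 to the endoplasmic reticulum and Golgi, 3 each to the early endosomal and recycling groups, 1 to the exocytic group (Rab27b), 1 to the genes of no compartment (Rab40b) and 0 to the late endosomal group.

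Genes that act on Rab proteins were described with the same fit, in 4 lists. The list of GDP dissociation inhibition, escort and prenylation had 4 of 7 genes lower (57.1%) and 1 higher (14.3%), beside 20.4% and 21.2% of all genes. Its median log2 fold change was -1.08. Gdi2 is its only GDP dissociation inhibitor, and it also holds Rabac1 and Rabif. Rabggta, a subunit of the enzyme that prenylates Rabs, had raw signals of 548 and 515 on the CPEB2 IgG arrays, against 1338 and 1790 on the control arrays. It was lower on both CPEB2 IgG arrays (-1.49 ± 0.40, adjusted p = 0.0136). Rabggtb, the partner subunit, had -1.08, and Gdi2 and Rabac1 had -1.15 and -1.11, all of them called. Chm, a Rab escort protein, was the called gene on the higher side (1.57 ± 0.58, adjusted p = 0.0161), and its raw signals were 2303 and 5173 against 1091 and 1338 with control IgG. The CPEB2 IgG arrays of Chm were both above the controls and differed between experiments. Chml (0.25) and Rabif (0.02) were not called.

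Of 27 tested GEFs, 6 were higher (22.2%) and 5 lower (18.5%), shares near those of all genes tested (21.2% and 20.4%), with a median of 0.10. The highest were Ankrd27, the GEF of Rab21 (2.73), and the Rab5 GEFs Rin2 (2.57) and Rabgef1 (2.25). The lowest were Rin1, another Rab5 GEF (-1.89), and Trappc9, a subunit of a TRAPP complex (-1.79). Of 31 GAPs, 10 were higher (32.3%) and 7 lower (22.6%), with a median of 0.27, led by Tbc1d2b (2.93), Tbc1d15, a GAP of Rab7 (2.39), and Tbc1d14, linked to autophagy (2.32). Tbc1d17 (-3.01) and Tbc1d7 (-1.66) were the lowest, and Tbc1d7 is known as a subunit of the TSC complex. Of 51 tested effectors, 10 were higher and 10 lower (19.6% each), again near the shares of all genes, with a median of 0.05. Eea1, the endosomal tether that binds Rab5 (2.41), and the golgins Golga4 (2.29) and Golga5 (1.90) were highest, and Pik3c3, the lipid kinase Vps34 (-2.50), and Rab11fip5 (-1.83) lowest. Rph3a, an effector of Rab3a, was on the lower side like Rab3a itself, with raw signals of 1226 and 1038 on the CPEB2 IgG arrays, against 3520 and 3814 on the control arrays. Rph3a had a log2 fold change of -1.65 ± 0.29 (adjusted p = 0.0093) and was chosen after its values were seen. Rims1 (0.33), Rims2 (-0.08), Rims3 (0.47) and Rph3al (-1.39) of the same effector list were not called.

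**Figure D5:**
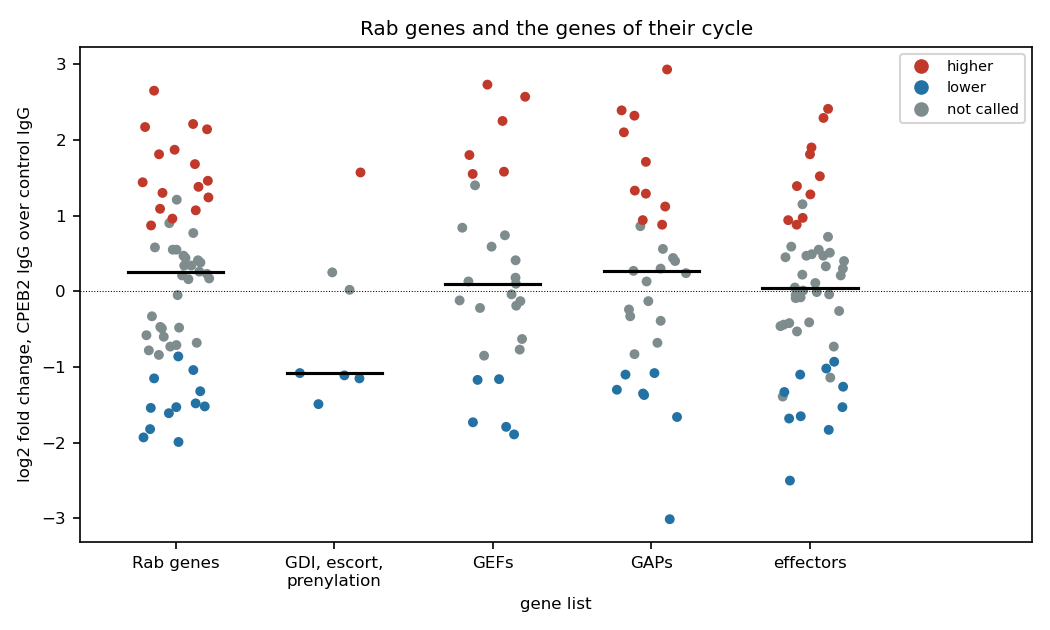
Each point is a tested gene, with its log2 fold change of CPEB2 IgG over control IgG on the vertical axis, color for the limma call and a black line at the median of the list. The list of GDP dissociation inhibition, escort and prenylation has its median at -1.08, and the Rab genes, GEFs, GAPs and effectors have theirs between 0.05 and 0.27.

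Other small GTPase families were set beside the Rab genes. Over all genes tested 21.2% were higher and 20.4% lower, with a median of -0.11, and of the Rab genes 28.1% were higher and 21.1% lower, with a median of 0.26. Of 27 tested Arf and Arl genes 40.7% were higher and 14.8% lower, with a median of 0.62. Of 29 tested Ras and Rap genes 37.9% were higher and 24.1% lower, with a median of 0.15. The differences between families were not tested.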

How the data were processed

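RNA precipitated with CPEB2 IgG or control IgG was measured on 4 one-color arrays. The authors deposited the output of Agilent Feature Extraction 10.5.1.1 for every array, which holds the intensity of each spot after the software's background correction and no scaling between arrays. Probe coordinates and symbols are those of the array annotation (mm9). Of the 58 symbols, 57 matched RefSeq by symbol or synonym, and Rab1 did not.

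Control spots were removed, as were spots that the software marked non-uniform or outlying, and 66 of 55681 probes without a value on every array were dropped. Intensities were put on the log2 scale and the 75th percentile of each array over the remaining 55615 probes was subtracted. The brightest probe stood for a gene among probes well above background on at least 2 of 4 arrays. limma 3.58.1 in R 4.3.3 was fitted to 19698 genes with the experiment as a block, which leaves 1 residual degree of freedom per gene, and genes were called at an adjusted p-value (Benjamini-Hochberg) under 0.05. The block rests on the methods, which divide each lysate between the antibodies, and deviations of same-numbered arrays from their group means correlated at 0.203. The fit draws the spread of each gene between these arrays towards that of all genes tested, and the p-values rest on the result. The number of arrays limits the precision. Python 3.11.15 with numpy 2.4.6, pandas 2.3.3 and scipy 1.17.1 was used for the rest.

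The members, compartments, gene lists and tests were chosen with earlier results of these data known. Values on each array are given for Rab3a to Rab3d, Rab5a, Rab7, Rab11a, Rab1, Rab6a, Rab8a and Rab10, for the highest and lowest gene of each compartment, for families called in both directions and for genes whose probes differ by more than 1 on the log2 scale. Of each list of Rab regulators the 3 highest and 2 lowest called genes are named, and for the list of GDP dissociation inhibition, escort and prenylation all 7 are. Some genes of these lists and of other GTPase families are not reported here. Alternatives were other scalings, normexp background correction with an offset of 50, centring within GC bins, marked spots kept, other filters on dim probes, other ways to combine probes, no block, an intensity trend and each array left out. The fits with an array left out had no block.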

Additional observations from a re-analysis of the deposited data

How the results depend on the processing

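With 4 arrays, 1 residual degree of freedom and 1 slide, the fit borrows its spread from all genes. The number of calls moved with the settings, both among the Rab genes and over all genes tested. The count of higher Rab genes was 8, and of lower ones also 8, with no filter on dim probes. That setting tests 24164 genes, of which 9.37% were higher and 7.6% lower. Leaving out 1 array gave 9 to 18 higher and 8 to 14 lower Rab genes, and the lowest count of higher genes came without control IgG replicate 1. Leaving out a whole experiment gave 14 and 19 Rab genes past the raw signal and fold thresholds. With either 1 array or 1 experiment left out, the medians ranged from 0.17 to 0.39 over all Rab genes, -0.87 to 0.06 over the exocytic genes, 0.49 to 1.00 over the early endosomal, 0.16 to 0.33 over the recycling, -0.53 to -0.13 over the late endosomal and lysosomal, 0.21 to 0.49 over the ER and Golgi, 0.96 to 1.63 over the plasma membrane delivery and cilium, and -0.50 to 0.12 over the other genes. Without the replicate block, 17 Rab genes were higher and 14 lower, with all reported calls kept and Rab15, Rab5a and Rab13 added. Of all genes, 21.6% were higher and 20.3% lower in that setting. Of the 16 higher and 12 lower calls, 8 and 8 remained in all 12 alternatives that use the 4 arrays, and 7 and 8 also with each array left out. No alternative leaves out a whole experiment with a test, since no residual degrees of freedom are left. Fits without 1 array were run without the block.

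Median centring moved the median of all genes by 0.23, quantile normalization by 0.13 and the percentile over probes well above background on all arrays by -0.11. Relative to the median of all genes, the Rab median was 0.38 in the reported setting and after median centring, 0.34 after quantile normalization and 0.11 after centring within GC bins. The median over all Rab genes was 0.49 after median centring and 0.08 after centring within GC bins. Centring within GC bins gave 0.10 over the early endosomal, 0.44 over the recycling, -0.67 over the late endosomal and lysosomal and -0.16 over the ER and Golgi genes. The mean of the probes of a gene gave 0.35 over the early endosomal and -0.06 over the recycling genes. For the recycling genes the median was also 0.31 after quantile normalization, 0.48 after median centring, 0.20 with no scaling and 0.14 with the other percentile, and for the ER and Golgi genes 0.50 after quantile normalization and 0.54 after median centring. Signs turned for Rab1 (-0.11) and Rab6a (-0.25) after centring within GC bins, and for Rab3d (-0.28), Rab4a (-0.35) and Rab8a (0.36) with the mean of their probes, which disagree. Those of Rab17, Rab30, Rab38 and Rab39b also turned within GC bins. The sign of Rab43 turned with the mean of its probes, and that of Rab6b without CPEB2 IgG replicate 2. Rab3c turned to 0.29 after quantile normalization, 0.17 after median centring, 0.11 within GC bins and 0.12 with the mean of its probes, and ranged from -0.34 to 0.23 with 1 array or 1 experiment left out. None of these genes was called in the reported setting. The causes were not tested.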

Other observations

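Some Rab-related genes had signals or fold changes that differed between the experiments. Rab37 had raw signals of 343 and 167 on the CPEB2 IgG arrays, against 692 and 260 on the control IgG arrays, so that both antibodies were higher in experiment 1. Rab44 had log2 fold changes of -0.19 and -1.49 in the 2 experiments. Madd, a GEF of Rab3, had raw signals of 38553 and 51237 after CPEB2 IgG pulldown and of 113080 and 24346 after control pulldown, so its log2 fold change was below 0 in experiment 1 (-1.47) and above 0 in experiment 2. Dennd4a, a GEF of Rab10, was likewise below 0 in experiment 1 (-1.18) and above 0 in experiment 2. Rabgap1 was lower by limma with the block (-1.30, adjusted p = 0.0431) and not without it (adjusted p = 0.563), with CPEB2 IgG signals of 22377 and 3040 beside control IgG signals of 87991 and 5041. Experiment 1 and experiment 2 correlated over the 57 Rab genes (Pearson r = 0.95 between their log2 fold changes), beside 0.82 over all genes, and genes are not independent replicates. These genes were chosen after their values were seen.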
